A study of Drosophila melanogaster with 42 samples.

Results

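The central nervous system (CNS, here the brain with the ventral nerve cord) of adult males lacking the transcripts of the fru P1 promoter was compared with that of wild-type males on 6 arrays, chosen as all arrays of the series that carry a fru mutant CNS sample, out of 42 arrays in all. In 3 of them (arrays 1 to 3) the mutants were fru w12/Cham5 and the wild type was w; Berlin, with the mutant RNA labelled in Cy5. In the other 3 (arrays 4 to 6) the mutants were fru 4-40/p14 and the wild type was CS (Canton-S), with the mutant RNA labelled in Cy3. Allele combination, wild-type strain and dye orientation therefore changed together and cannot be told apart within these arrays. All flies were adult males, aged 0 to 24 h by the labels, and each RNA sample pooled the dissected tissue of several flies and was amplified before labelling. Both combinations are strong loss-of-function states for the P1 transcripts and bring together chromosomes with deletions, so loci beside fru may be present in a single copy, and fru 4-40/p14 also removes transcripts of a second fru promoter. The array titles and the channel descriptions name the wild-type strains in conflicting ways, and the channel descriptions were used.

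fru is a gene of the sex determination hierarchy. Its P1 transcripts are spliced differently in the sexes, and in males they encode FRU-M proteins, zinc finger transcription factors with a BTB domain that are made in a subset of neurons throughout the CNS. FRU-M is required for male courtship behaviour, and males without it court little or not at all. RNA of whole brains and nerve cords also holds that of the many neurons that do not use the P1 promoter.

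Each value is the log2 ratio of mutant over wild-type signal, so that 1 stands for a transcript 2-fold higher in the mutants and −1 for one 2-fold lower. The arrays carried values for between 8502 and 9485 of 16320 probes, with array medians between −0.05 and 0.04. Within a combination the arrays agreed: across probes, pairs of fru w12/Cham5 arrays correlated at 0.625 to 0.722 and pairs of fru 4-40/p14 arrays at 0.588 to 0.647. Between the combinations all 9 pairs correlated below 0, from −0.600 to −0.400. The 4 CNS arrays of wild-type Canton-S females over males, which hold both dye orientations, correlated with the fru arrays of their own dye orientation at 0.325 to 0.623 and with those of the opposite orientation at −0.529 to −0.307. Of 8538 probes that at least 5 of the 6 fru arrays measured, 3849 (45.1%) lay on one side of 0 on every array of one combination and on the other side on every array of the other. Only 363 probes (4.25%) had 1 sign on every array that carried a value, 184 of them higher and 179 lower in the mutants. The plot of both combination means shows this opposition and the few probes that stood outside it.

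**Figure D1:**
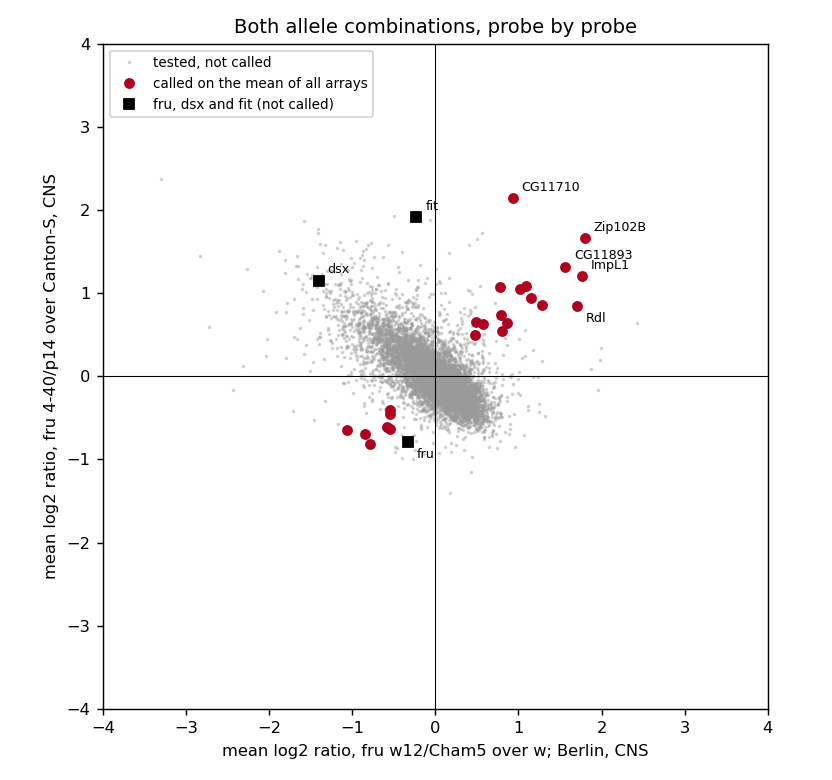
Mean log2 ratio of each tested probe over the fru w12/Cham5 arrays (horizontal) and over the fru 4-40/p14 arrays (vertical), up to 3 arrays each, with the 23 called probes in red and fru, dsx and fit as black squares. Most probes run from upper left to lower right, with opposite signs in the 2 combinations. The called probes lie at upper right or lower left, with 1 sign in both, as a call nearly requires.

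The arrays were checked against their labels with fru itself. The probe for fru with values on all arrays (probe 7797) read −0.41, −0.48 and −0.11 in fru w12/Cham5 and −0.36, −1.05 and −0.95 in fru 4-40/p14. It was below 0 on all 6 arrays, least on array 3, and the 2 combinations overlapped. Its mean was −0.56 (SE 0.136, n = 6), and it did not pass the threshold over all probes (limma adjusted p 0.413). It passed where the spread was taken within each combination (adjusted p 0.0531) and where the wild-type CNS arrays supplied a dye term (adjusted p 0.0231). The dye term cancels from the average of the combinations, so both fits kept the mean of −0.56 and changed only the spread. They are not separate checks. A second fru probe (16173) gave CNS values on 2 fru w12/Cham5 arrays only, −0.24 and −0.21, while in the heads of the same genotypes it read between −1.36 and −0.15 with a mean of −0.85 (adjusted p 0.0073, 8 arrays). What part of fru either probe detects was not analysed here.

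Since each value is a ratio between samples of the same tissue, markers cannot check the tissue label, but they show whether nerve cell RNA or RNA of tissues that a dissection can carry along differed between mutants and wild type. None of 7 probes for pan-neuronal genes was called, with means from −0.08 to 0.15 and a median of 0.02, and none of 7 glial probes, from −0.01 to 0.14 with a median of 0.05. Muscle markers (7 tested of 11 probes, median −0.06), haemocyte markers (7 of 9, median 0.05), tracheal markers (3 of 4, median 0.05), photoreceptor markers (4 of 6, median 0.09) and fat body markers (6 of 10, median 0.10) also gave no call. These pooled medians do not show that such RNA was even within each combination. The muscle median was 0.26 on arrays 4, 5 and 6 and −0.31 in the other combination. The fat body medians were 0.04 and 0.11. The highest fat body mean, 0.84, was that of fit. It read 1.76, 2.07 and 1.92 on arrays 4, 5 and 6 and 1.00, −0.86 and −0.82 in the other combination. Reproductive organ markers were tested for 7 of 29 probes, with a median of −0.22 and no call. The accessory gland gene Acp98AB moved most among them, at −1.61 and −3.25 on arrays 2 and 3 and at 3.46, −1.35 and −2.60 on arrays 4, 5 and 6, so that arrays of one combination lay on both sides of 0. The part of such RNA in the results below was not tested. In RNA of whole tissue, fewer cells of a type and less RNA per cell cannot be told apart.

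Averaged over all 6 arrays, 23 of 8538 probes differed from 0 (0.269%) in limma's test with Benjamini-Hochberg adjustment over all tested probes at a threshold of 0.15, 16 of them higher in the mutants (0.187%) and 7 lower (0.0820%). This fit took all 6 arrays as 1 group, so the opposition between the combinations counted as spread. Its median SE was 0.119, against 0.062 in the fit with a mean for each combination, where 478 probes were called. All 23 had 1 sign on every array with a value, which a call in this fit nearly requires, so it is no separate result. Without adjustment 354 probes reached a p under 0.05, where 5% of the tested probes would be 427. Of the 23, 20 have a gene name, 14 higher and 6 lower. Changes were of moderate size: 9 probes were more than 2-fold higher, none was more than 2-fold lower, and the median size of the called means was 0.80. Only 4 had an adjusted p under 0.05, namely Zip102B, CG11893, Cyp6a2 and GlcT, and these were also the 4 that stayed called whichever single array was left out. Without any 1 array between 4 and 9 probes were called in all.

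**Figure D2:**
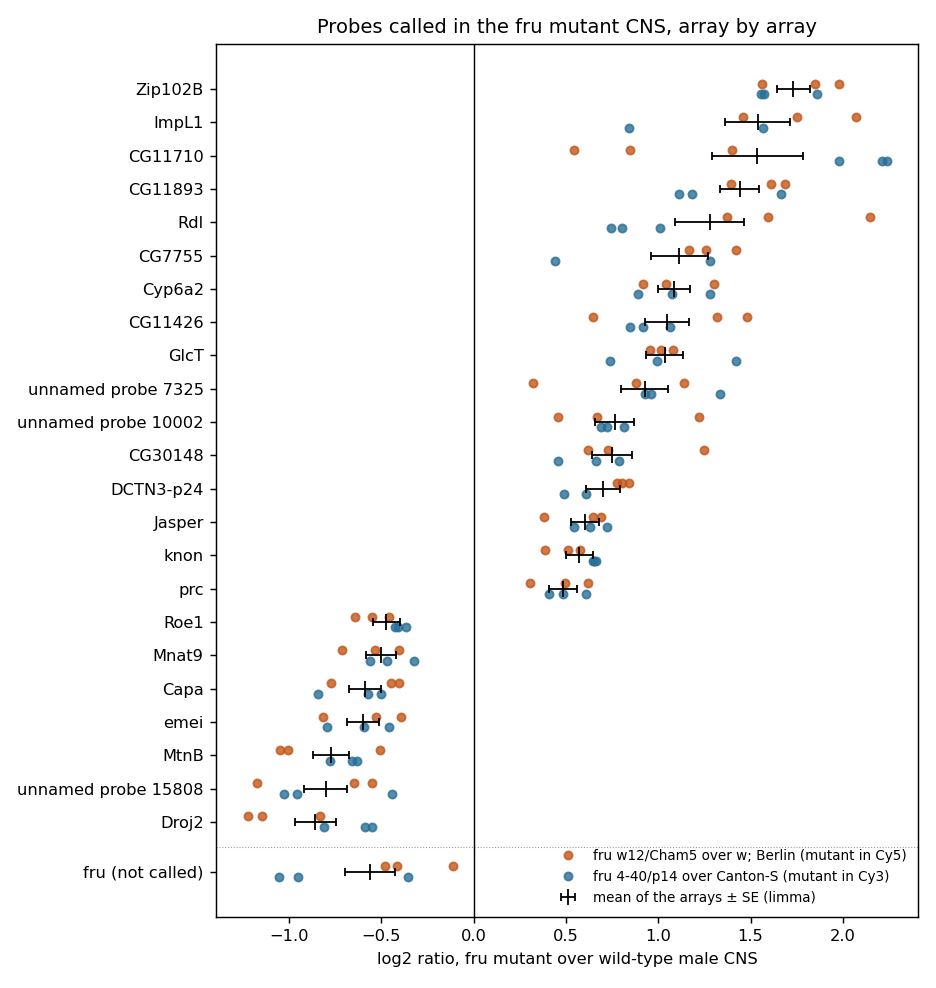
Log2 ratio of mutant over wild type for each of the 23 called probes on each CNS array, with both allele combinations marked apart. All points of a probe lie on one side of 0, as a call nearly requires, and Zip102B is the highest, between 1.56 and 1.98 on every array.

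The called genes with the highest ratios included Zip102B, CG11893, Cyp6a2 and ImpL1. Zip102B, on chromosome 4, encodes a transporter of the ZIP family, which carries zinc into the cytoplasm. It read 1.56, 1.85 and 1.98 in fru w12/Cham5 and 1.56, 1.57 and 1.86 in fru 4-40/p14, so that the combinations overlapped and the mean was 1.73 (SE 0.089, 3.32-fold, adjusted p 7.09e-04). CG11893, on 3R, belongs by its sequence to the ecdysteroid kinase-like family. Its values were 1.61, 1.40 and 1.69 against 1.11, 1.18 and 1.67, again overlapping, with a mean of 1.44 (SE 0.105, 2.72-fold, adjusted p 0.00477). Cyp6a2, a cytochrome P450 of the family that metabolises insecticides, read 0.92, 1.04 and 1.30 against 0.89, 1.08 and 1.28. The 2 combinations were nearly identical here, and the mean was 1.09 (SE 0.087, 2.12-fold, adjusted p 0.00623). ImpL1, first found as a gene induced by the moulting hormone ecdysone, was measured on 5 arrays, at 1.46, 2.07 and 1.75 against 1.57 and 0.84, with a mean of 1.54 (SE 0.174, 2.90-fold, adjusted p 0.0624). It stayed called in 2 of 6 fits with an array left out.

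GlcT encodes ceramide glucosyltransferase, which makes glucosylceramide. Its values of 1.08, 1.02 and 0.96 and of 0.74, 0.99 and 1.42 overlapped between the combinations and gave a mean of 1.03 (SE 0.098, 2.05-fold, adjusted p 0.0158). CG11426, of the lipid phosphate phosphatase family, read 1.32, 0.65 and 1.48 against 0.85, 0.92 and 1.07, with array 2 the lowest, and averaged 1.05 (SE 0.120, 2.07-fold, adjusted p 0.0513). It stayed called in 3 of 6 fits with an array left out.

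Rdl, which encodes the main subunit of the GABA-A type chloride channel that carries fast inhibition in the fly brain, was the called gene most directly tied to synaptic transmission. On probe 2919 it read 1.37, 1.59 and 2.15 in fru w12/Cham5 and 0.74, 0.80 and 1.01 in fru 4-40/p14. All 6 values were above 0 and the combinations did not overlap, the first being higher on each array. The mean was 1.28 (SE 0.189, 2.42-fold, adjusted p 0.0844), and no fit with 1 array left out kept the call (adjusted p 0.198 to 0.402). The other Rdl probe, 3259, did not share the change. It read 0.41, −0.33 and 0.66 against −0.44, −0.47 and −0.63, with a mean of −0.13 (SE 0.187, adjusted p 1.00), so that the gene's 2 probes disagreed.

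CG11710, on the X chromosome, for which the study infers transcription cofactor activity, had its higher values in fru 4-40/p14. It read 0.54, 0.85 and 1.40 in fru w12/Cham5 and 2.21, 1.98 and 2.24 in fru 4-40/p14, without overlap, with a mean of 1.54 (SE 0.247, 2.90-fold, adjusted p 0.110). It stayed called in 1 of 6 fits with an array left out. CG7755, on 2R, was high on 4 arrays, between 1.17 and 1.42, and lower on array 5 at 0.44, for a mean of 1.11 (SE 0.154, 2.16-fold, adjusted p 0.0951, n = 5).

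The remaining called genes were less than 2-fold higher. They were CG30148 (mean 0.75, from 0.46 to 1.25), the dynactin subunit gene DCTN3-p24 (0.70, from 0.49 to 0.84 on 5 arrays), Jasper (0.60, from 0.38 to 0.72), which encodes a chromatin protein that anchors the JIL-1 kinase, knon (0.57, from 0.39 to 0.66), a relative of an ATP synthase subunit known from testis mitochondria, and the heart matrix gene prc, which encodes pericardin (0.49, from 0.30 to 0.62). Adjusted p-values of these genes ran from 0.0624 to 0.0973. Probes 7325 and 10002, unnamed here, averaged 0.93 and 0.76.

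The called genes that were lower included a neuropeptide gene, co-chaperones and a metallothionein. Capa encodes the precursor of the CAPA peptides, which are released from neurosecretory cells of the ventral nerve cord and act on the renal tubules. It read −0.77, −0.40 and −0.44 in fru w12/Cham5 and −0.50, −0.84 and −0.57 in fru 4-40/p14. All values were below 0 and the combinations overlapped, with a mean of −0.59 (SE 0.088, 1.50-fold lower, adjusted p 0.0844). The call was lost in each fit with 1 array left out (adjusted p 0.247 to 0.335), although the mean stayed between −0.63 and −0.54.

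Droj2, a DnaJ-type co-chaperone, was lowest of the called genes, at −0.83, −1.15 and −1.22 against −0.81, −0.59 and −0.55. The combinations did not overlap, and the mean was −0.86 (SE 0.112, 1.81-fold lower, adjusted p 0.0625). Roe1, the mitochondrial GrpE-type co-chaperone, averaged −0.47, from −0.64 to −0.37. Neither call was kept in any fit with 1 array left out. Neither gene belongs to the list of inducible and cognate heat shock genes, of which 9 probes were tested and none was called (median −0.01).

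MtnB encodes a metallothionein, a small protein that binds copper and cadmium. It read −1.0, −0.50 and −1.05 against −0.63, −0.66 and −0.78, overlapping between the combinations, with a mean of −0.77 (SE 0.096, 1.71-fold lower, adjusted p 0.0624). emei, the fly relative of a calcium channel protein of the endoplasmic reticulum, averaged −0.60, from −0.81 to −0.39, and Mnat9, a microtubule-associated acetyltransferase, averaged −0.50, from −0.71 to −0.32. Probe 15808, unnamed here, averaged −0.80. Of these, MtnB stayed called in 1 of 6 fits with an array left out and the others in none.

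The called probes were spread over the genome. By arm, 2R held 7 of its 1509 tested probes, 3R 6 of 1845, 3L 5 of 1451, the X 1 of 1192 and chromosome 4 1 of 66, 2L held none of 1373, and 3 had no place among these arms. Of the lower probes 4 lay on 3R, the arm that carries fru, and of the higher ones 2. The called genes also differed in how often the wild-type Canton-S CNS gave a value for them: 8 of the 16 higher probes had fewer than 3 values on the 4 female over male arrays, against 773 of all 8538 tested probes (9.05%) and none of the 7 lower ones. Spots were kept by their signal above background and the called probes were selected by direction, so this contrast is no independent result. Its cause was not tested. Of the 15 called probes that could be tested between the sexes on the wild-type arrays, none was called, where 5 of 8307 probes were.

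Of the other genes that the study named for this tissue, sand (CG8713), a potassium channel gene of the 2-pore domain family, gave values in fru w12/Cham5 only. They were −2.13, −1.78 and −1.66, and the gene was not tested since the fru 4-40/p14 arrays carried none. In heads of fru w12/Cham5 it averaged −3.43 over 4 arrays. NPF, which encodes neuropeptide F, was slightly below 0 on each array, from −0.32 to −0.09, with a mean of −0.19 (SE 0.071, adjusted p 1.00). fit, a gene of the fat body around the brain that responds to feeding and differs between the sexes, read 1.00, −0.86 and −0.82 in fru w12/Cham5 and 1.76, 2.07 and 1.92 in fru 4-40/p14 (mean 0.84, SE 0.450, adjusted p 1.00). The serotonin receptor gene 5-HT2B had values on both sides of 0 in each combination, from −1.24 to 1.42. The probe for y carried no CNS value.

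Lists of genes by role were then read against the 0.269% of all probes called and a median of 0.00 over all tested probes. Among 29 probes for neuropeptides and peptide hormones, Capa was the only one called, and the median was −0.05. Lk, which encodes leucokinin, was lower on all 6 arrays, from −0.37 to −0.06 (mean −0.28, SE 0.076, adjusted p 0.574), and NPF had 1 sign too, while Crz, which encodes corazonin, averaged −0.20 with values on both sides of 0. In the fit that took the spread within each combination, 6 of these 29 passed, all lower. They were Capa, NPF, Crz, Lk, Dh31 and CCHa2, the last 2 encoding a diuretic hormone and a gut and brain peptide. In that fit 478 of all 8538 probes passed (5.60%), 237 higher and 241 lower, 303 of them with combination means of the same sign. Of 13 probes for neuropeptide receptors none was called, and the allatostatin C receptor gene AstC-R1 was the lowest at −0.30 (SE 0.096, adjusted p 0.828), below 0 on each array.

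Among 37 probes for neurotransmitter receptors, Rdl was the only one called and the median was −0.00. The dopamine receptor gene Dop2R had the lowest mean of the list. It read −1.74, −1.33 and −1.31 in fru w12/Cham5 and −0.24, −0.44 and −0.89 in fru 4-40/p14, below 0 on all 6 arrays but without overlap, and averaged −0.99 (SE 0.200, adjusted p 0.268), while its other probe averaged −0.06. The octopamine receptor gene Octbeta2R averaged −0.26 (SE 0.087, adjusted p 0.855). None of 20 probes for transmitter synthesis and transport was called, nor any of 20 for synaptic vesicle and active zone proteins.

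Potassium channels gave no call among 21 probes, with means from −0.22, for the calcium-activated channel gene slo, to 0.14. Other channel genes gave none among 18, with a median of 0.08. The largest mean there was that of unc79, a subunit of the sodium leak channel complex, at 0.62, 0.33 and 0.49 against 0.54, 0.34 and 0.33. It was above 0 on each array and just missed the threshold (mean 0.44, SE 0.077, adjusted p 0.163). The calcium channel subunit gene Ca-beta was also above 0 on each array, with a mean of 0.31 (SE 0.092, adjusted p 0.694).

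Surface proteins that guide neurons to their partners gave no call. Of 38 probes for the dpr, DIP, beat and side families none passed, the median was −0.05 and the means ran from −0.27 to 0.54, the highest being that of dpr3 (SE 0.485, adjusted p 1.00). Here beat-Vb (−0.23, SE 0.079, adjusted p 0.927) and dpr10 (−0.17, SE 0.077, adjusted p 1.00) were the only ones with 1 sign on every array. Of 23 axon guidance and adhesion probes none was called either. CadN2, an N-cadherin gene, and Nlg2, a neuroligin gene, had 1 sign, at 0.33 (SE 0.129) and −0.17 (SE 0.073). Among 13 circadian clock probes none was called, and nocte and per averaged 0.21 and 0.20.

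The sex hierarchy gave no call among 22 probes. After fru, the smallest p in it was that of retn, which encodes a transcription factor that restrains courtship in females, at 0.46, 0.01 and 0.16 against 0.46, 0.73 and 0.18 (mean 0.33, SE 0.108, adjusted p 0.828). dsx split by combination, at −1.56 and −1.25 in fru w12/Cham5 and 1.45, 0.96 and 1.04 in fru 4-40/p14. The 4 tested dosage compensation probes averaged between −0.34, for msl-3, and −0.02, for Clamp, with none called.

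Detoxification genes held the called Cyp6a2 and several others above 0 on every array. Of 57 cytochrome P450 probes 1 was called, and 4 had 1 sign, all higher. The median of the 57 was −0.02. In the fit that took the spread within each combination, 4 of them passed higher and 5 lower. Cyp6a20, a P450 known for its part in male aggression, read 1.11, 1.18 and 0.94 in fru w12/Cham5 and 0.12, 0.23 and 0.38 in fru 4-40/p14 (mean 0.66, SE 0.168, adjusted p 0.464). Cyp9h1 averaged 0.29 (SE 0.074, adjusted p 0.476) and Cyp6a8 0.48 (SE 0.144, adjusted p 0.711). None of 30 glutathione transferase probes was called, with 6 above 0 on every array with a value and none below 0, where 184 of all 8538 probes were above 0 and 179 below on every such array. Among them GstD3 was the largest, at 1.22, 1.37 and 1.28 against 0.19, 0.21 and 0.15 (mean 0.74, SE 0.210, adjusted p 0.627), and GstO2 averaged 0.26 and 0.23 on its 2 probes. Obp99b, the odorant-binding protein gene with the smallest p of 20 probes, averaged 0.42 (SE 0.092, adjusted p 0.319), with values from 0.11 to 0.62. Cpr47Ef, the cuticle protein gene with the smallest p of 24 probes, averaged 0.79 over 5 arrays (SE 0.155, adjusted p 0.303), from 0.24 to 1.27.

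**Figure D3:**
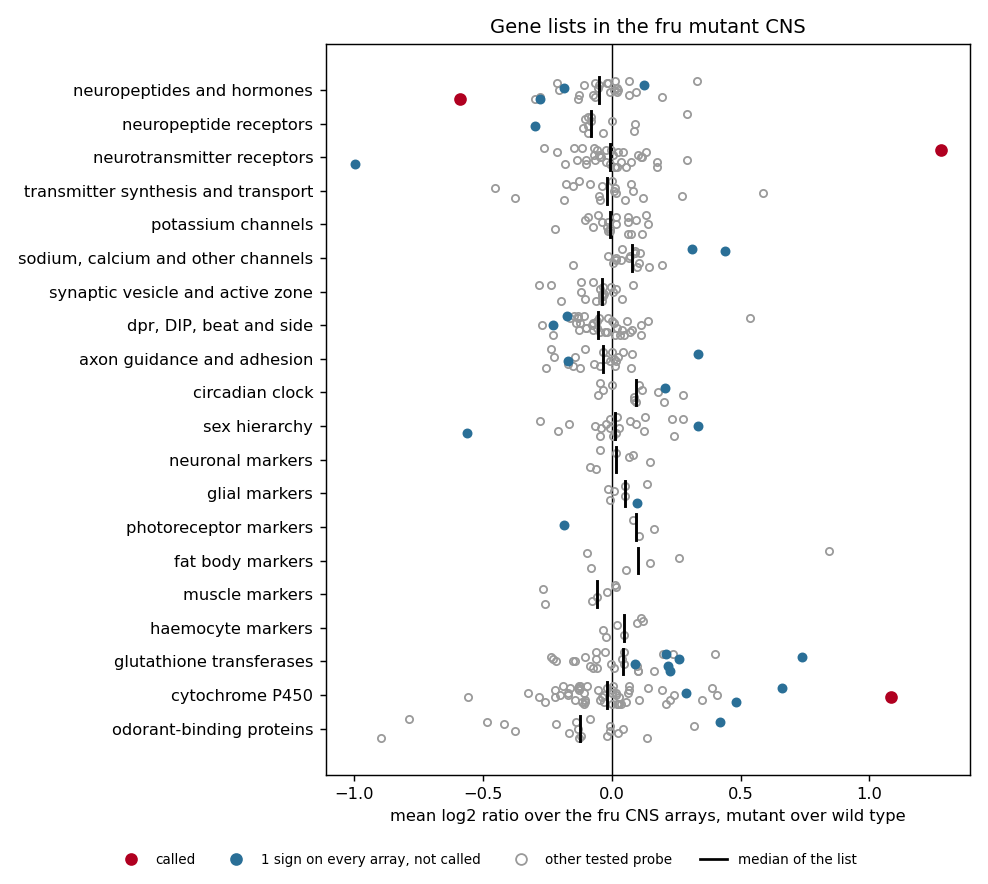
Mean log2 ratio over the fru CNS arrays of every tested probe of each gene list, with called probes in red, probes of 1 sign on every array in blue and the median of each list as a bar. The list medians lie near 0, and the called points are Capa at −0.59, Rdl at 1.28 and Cyp6a2 at 1.09.

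The heads of fru P1 mutant males were measured on 8 arrays, 4 with each combination and each of these with both dye orientations, which allows each CNS value to be read beside a head value. In heads 855 of 7352 probes were called (11.6%), and of the 703 that were tested in both tissues 9 were also called in the CNS (1.28%). The CNS calls are those of the fit in which the opposition between the combinations counted as spread. Of the 23 called in the CNS, 19 were tested in heads. Among these, 5 higher and 3 lower were called in the same direction there, and 1 was called in the opposite one. The 5 were Zip102B (head mean 1.52), Cyp6a2 (2.49), CG11893 (2.42), CG30148 (0.63) and CG11710 (0.38), and the 3 were emei (−0.28), Mnat9 (−0.18) and probe 15808 (−0.54). Of all head calls tested in the CNS, 69.7% had a CNS mean of the same sign, against 55.2% of the probes not called in heads.

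By the study's methods, head RNA was labelled directly, whereas CNS RNA was amplified first. The CNS samples also held the ventral nerve cord, which heads lack. Tissue and labelling method therefore changed together and cannot be told apart. The difference between the tissues was tested in limma over the arrays of both. It was called for 59 of 6063 probes (0.973%), the CNS value lying above the head value in 25 and below it in 34, and for 9 of the 19 probes called in the CNS. MtnB differed most. Its values in heads ran from 1.47 to 4.59 with a median of 3.78, above 0 on 8 of 8 arrays, while all 6 CNS values were below 0, for a difference of −4.32 (SE 0.341, adjusted p 4.23e-06). Cyp6a2 and CG11893 were higher in both tissues but more so in heads, by 1.40 (SE 0.299, adjusted p 0.0559) and 0.97 (SE 0.249, adjusted p 0.136). Droj2 was lower in the CNS only, with a head mean of 0.04 and a difference of −0.89 (SE 0.126, adjusted p 0.00227). Zip102B gave no called difference between the tissues.

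Rdl, GlcT, Jasper, CG11710 and probe 7325 stood higher in the CNS than in heads. Rdl probe 2919 read from −1.06 to 0.65 in heads with a median of 0.02, and the difference was 1.34 (SE 0.287, adjusted p 0.0559). Its head values were above 0 on 4 arrays and below 0 on 4, and they differed by combination there too, with means of 0.38 in fru w12/Cham5 and −0.50 in fru 4-40/p14. The other Rdl probe, 3259, gave no called difference between the tissues (0.10, SE 0.206, adjusted p 0.991). GlcT averaged 0.00 in heads, from −0.62 to 0.62 over 6 arrays, for a difference of 1.03 (SE 0.194, adjusted p 0.0478). CG11710 differed by 1.15 (SE 0.265, adjusted p 0.0855) and Jasper by 0.61 (SE 0.124, adjusted p 0.0478).

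Some of the other differences between the tissues came from genes called in heads with CNS means nearer 0. The Ly6-family gene atilla averaged 2.28 in heads and −0.15 in the CNS, a difference of −2.42 (SE 0.283, adjusted p 5.91e-04). GstE1, a glutathione transferase, averaged 1.50 in heads and 0.16 in the CNS (difference −1.33, SE 0.162, adjusted p 9.80e-04). The kinetochore gene Mis12 averaged −1.13 in heads and 0.03 in the CNS, and Prx6c, a peroxiredoxin gene, −1.47 and −0.55. For Prx6c the CNS values were below 0 on all 6 arrays, from −1.02 to −0.28, without a call (adjusted p 0.230). The remaining named genes among the 10 differences of greatest size in each direction were CG16898, CG18367, Cngl, yellow-d and Unc-115a with lower CNS values and Xport-A, CG30193, LManII and Hez with higher ones.

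**Figure D4:**
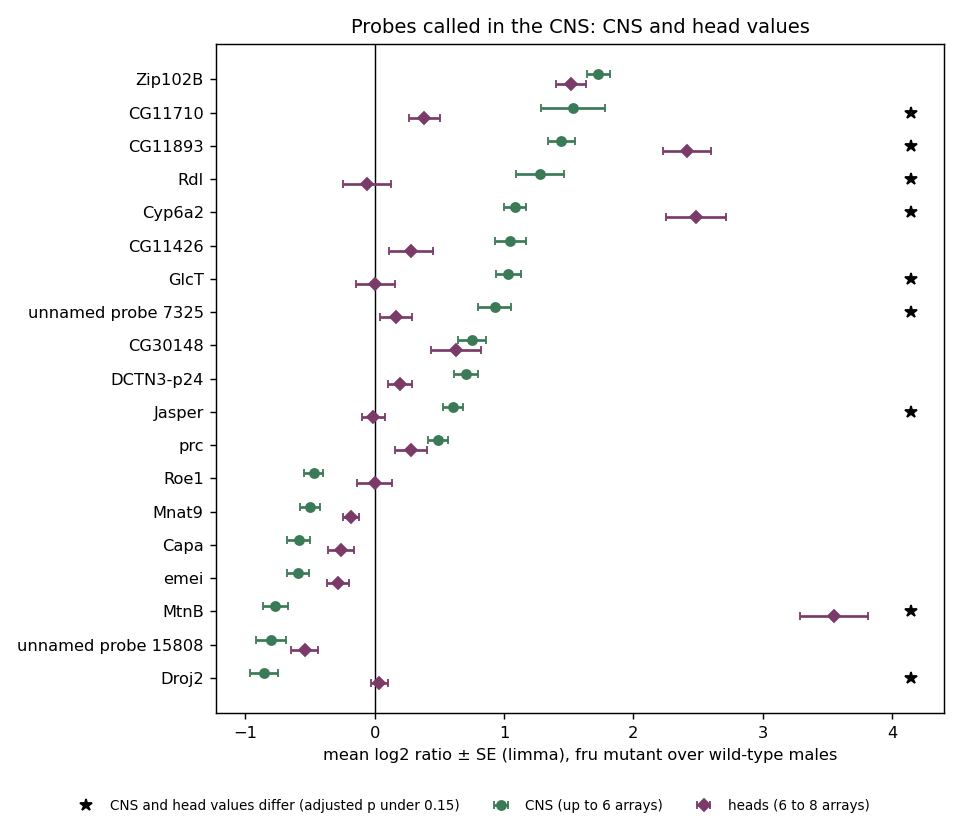
Mean log2 ratio with its SE (limma) in the CNS (green) and in heads (purple) for the 19 called CNS probes that were also tested in heads, with a star where the difference between the tissues was called. MtnB lies at −0.77 in the CNS and 3.55 in heads, while Zip102B lies at 1.73 and 1.52.

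Whether the 2 combinations differed from each other could be asked only with a dye term, which the 4 wild-type CNS arrays of both dye orientations supplied. With it, 244 of 8145 probes were called (3.0%), 104 with fru w12/Cham5 above fru 4-40/p14 and 140 with it below, whereas without a dye term 5958 of 8697 were called. The count rested on single arrays. It fell to 18 without array 5 and 27 without array 6 of fru 4-40/p14, was 92 without array 1, 75 without array 2 and 116 without array 4, and moved to 35 without array 2 and 1674 without array 4 of the wild-type CNS arrays.

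Of the 10 largest differences in each direction, 8 stayed called whichever of the 10 arrays was left out, being those of Cep89, RpS21, CG31955, Syt12, CG13344, RpL27, CG42329 and probe 13234. Syt12, a synaptotagmin gene, was above 0 on each array, at 2.41, 2.13 and 2.75 in fru w12/Cham5 and 0.65, 0.67 and 0.61 in fru 4-40/p14, a difference of 2.71 (SE 0.281, adjusted p 0.00411). The ribosomal protein gene RpS21 split around 0, at −2.01, −1.32 and −1.21 against 0.96, 1.29 and 1.29, and the centrosome gene Cep89 likewise, at −1.88, −1.67 and −1.84 against 0.68, 0.93 and 0.73. Their differences were −2.30 (SE 0.324) and −2.19 (SE 0.213). For dsx the difference was −3.06 (SE 0.353, adjusted p 0.0289), with 1 wild-type value in each dye orientation. CG7218, Plap and CG9497 were called with differences over 2 although their combination means lay at most 0.56 apart, so that their calls came from the wild-type arrays behind the dye term.

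Heads gave a second reading of these differences, with the dye orientations balanced. Wild-type strain still changed with the combination, so the 2 cannot be told apart in heads either. There 2424 of 6821 probes differed between the combinations (35.5%). Of the 165 CNS differences tested in heads, 125 had the same sign (75.8%, against 53.0% of probes without a CNS difference), 72 were called with it and 11 were called with the opposite sign. RpS21 differed by −1.93 in heads, CG31955 by −1.58, Syt12 by 0.96 and probe 13234 by 1.40. GstD3 differed by 1.25 in the CNS (SE 0.269, adjusted p 0.0936) and by 4.20 in heads, and Pdf, which encodes the clock neuron peptide, by −1.30 (SE 0.335, adjusted p 0.124) and −0.90. Among the 16 called CNS probes that could be tested, 5 differed between the combinations, all with fru w12/Cham5 above. They were Rdl probe 2919 by 1.71 (SE 0.366, adjusted p 0.0936), CG11426 by 1.37, Jasper by 1.11, DCTN3-p24 by 0.97 and emei by 0.85. Without the dye term the difference was 0.85 for Rdl, 0.26 for DCTN3-p24, 0.20 for CG11426, 0.04 for emei and −0.06 for Jasper, and it was called for Rdl (adjusted p 0.0120) and DCTN3-p24 (adjusted p 0.0753) only. For CG11426, emei and Jasper the call therefore rested on the dye term.

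Since the mutant chromosomes carry deletions, the genes on either side of fru were read one by one. Of the 50 annotated genes before and the 50 after it, 35 probes and 25 probes were tested, and none was called. Genes before fru had a median of 0.10 in fru w12/Cham5 and −0.26 in fru 4-40/p14, and genes after it −0.15 and −0.12, where all tested probes had 0.04 and −0.05. In heads the same probes had medians of −0.03 and −0.54 before fru and −0.43 and −0.21 after it. A mean past 0.5 in either direction and either combination was found for 13 of the 60 neighbours (21.7%), against 20.6% of all tested probes.

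The neighbours with such means included both genes of the cholinergic locus. VAChT, the vesicular acetylcholine transporter gene, read −1.04, −0.50 and −0.86 in fru w12/Cham5 and 0.21, −0.13 and −0.38 in fru 4-40/p14. ChAT, which encodes the enzyme that makes acetylcholine and shares its locus with VAChT, read on probe 3147 −1.20, −0.81 and −0.70 against 0.13, 0.13 and 0.19. Its other probe, 5867, did not split in this way, with means of 0.03 and −0.19. On probe 3147 ChAT, like VAChT, was lower on each fru w12/Cham5 array than on any fru 4-40/p14 array, and in heads VAChT and this probe averaged −0.81 and −0.87 in fru w12/Cham5 and −0.04 and −0.29 in fru 4-40/p14. The difference between the combinations was called for VAChT (−1.16, adjusted p 0.121) and not for ChAT (−0.69, adjusted p 0.216). The others were CG7168, CG7156, Dlc90F, naz, Nup43 and Vti1b before fru and dind, CG7715, Epg5, Sgsh and Mpc1 after it, of which CG7168 was the lowest in fru w12/Cham5 (−0.90) and naz in fru 4-40/p14 (−0.63).

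Several of the nearest genes had lower means in heads than in the CNS. These were chosen after their values were seen. In fru 4-40/p14, Wdr37 averaged −1.79 in heads and 0.05 in the CNS, and CG31122 −1.18 and 0.17. In fru w12/Cham5, CG7695 averaged −1.23 in heads and −0.22 in the CNS, and CG31229 −1.13 and −0.02. Over both combinations the difference between the tissues was not called for these 4 (adjusted p 0.494 to 0.893), and CG7695 was below 0 on all 3 fru w12/Cham5 CNS arrays. fray, which encodes a kinase needed in glia for nerve ensheathment, was the one nearby gene with a called difference between the tissues (0.67, adjusted p 0.0478). Its means in heads were −0.68 and −0.82, and in the CNS −0.23 and 0.10.

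**Figure D5:**
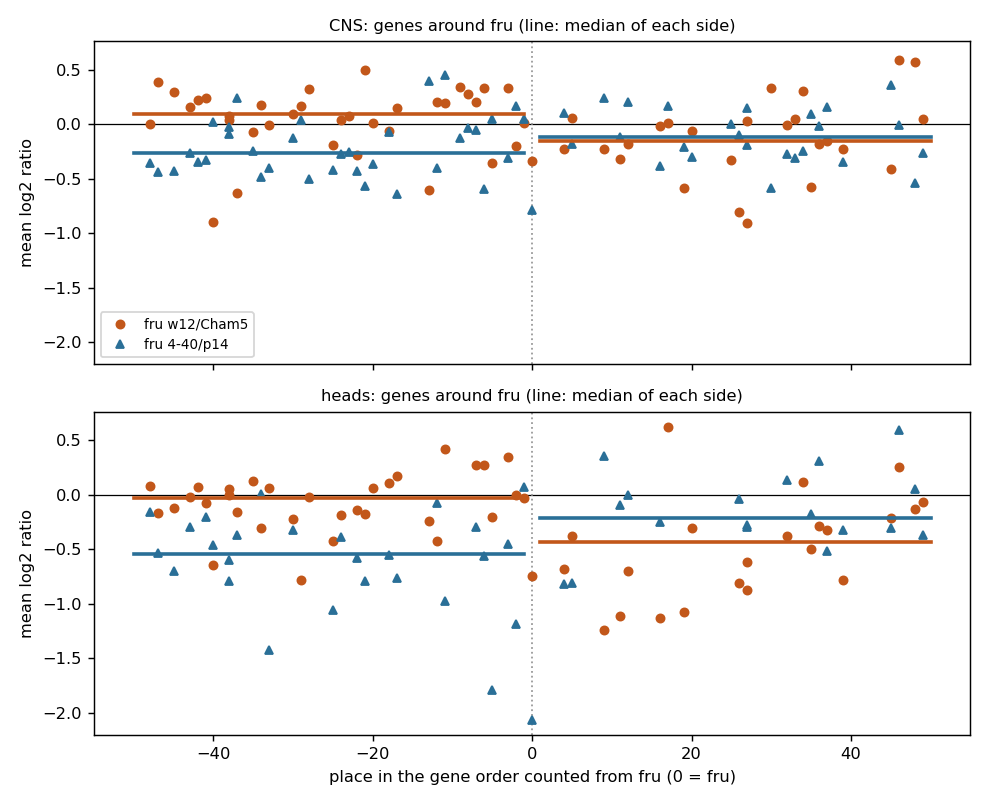
Mean log2 ratio of the genes on either side of fru, by their order along the chromosome with fru at 0, in the CNS and in heads, with each allele combination marked apart. In heads many genes before fru lie below 0 in fru 4-40/p14, with a median of −0.54, while in the CNS their median was −0.26.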

How the data were processed

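RNA of CNS samples was hybridised in 2 colours to spotted oligonucleotide arrays. The deposited values are log2 ratios that the authors made from scanned images by removing poor spots, keeping spots of which most pixels exceeded background, and lowess normalisation in Bioconductor. The versions are not given in the sources used here. The ratios are already turned for dye orientation, channel 2 over channel 1. Nothing was normalised again, and spots left out have no value. The samples are independent biological samples by the study's methods, and the number of arrays limits the precision.

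The log2 ratios were tested with limma 3.58.1 in R 4.3.3 (lmFit and eBayes, two-sided, Benjamini-Hochberg adjustment over all tested probes, threshold 0.15). Probes were tested with values on at least 5 of 6 fru CNS, 6 of 8 fru head or 3 of 4 wild-type CNS arrays, and combination differences with at least 2 values per combination. "Called" means past the threshold. Errors are limma's SE. A further fit gave each combination its own mean and tested the average of both, and another added a dye term from the 4 wild-type CNS arrays. The dye term cancels from that average, but not from the difference between the combinations. The limma fits of the mean, of the combination means, of the combination difference with a dye term and of CNS against heads were run on simulated data. The simulated arrays held independent noise, with a dye effect added for the difference fit only. They do not show how the other fits handle the opposition between the combinations. No pair of arrays was identical, and 0 sample columns were unmapped. Columns of the authors' own comparisons were not used.

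Probes were named through Entrez IDs (12273) or accessions (116) in the current RefSeq gene table, or kept the annotation's symbol (524), and 3407 of 16320 are unnamed here. A gene's probes were never averaged. Named genes were fru, those the study names for the CNS, the called probes, list members with the smallest p, neighbours of fru with a mean past 0.5, and the 10 largest called differences in each direction. The rule, the gene lists and the samples were chosen with earlier results of these data known, so a list's count is no independent evidence. Sequences of the probes were not used here.

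Alternatives moved array medians to 0, scaled the arrays to a common spread, required all 6 or at least 4 of 6 values, replaced limma by a plain t-test, left out each array in turn, or treated the replicate number as a block.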

Additional observations from a re-analysis of the deposited data

Results flagged for a closer look

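On 1 of 29 probes with 4 to 6 CNS values, that of CG7755, a single array lay apart: array 5 of fru 4-40/p14 read 0.44 while the other 4 lay between 1.17 and 1.42, a gap of 0.743 of the whole range. Chance marks about 1 in 20 such groups.

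Of the probes called in the CNS, 9 had a value that differed from that of heads in limma's test. The CNS value was lower by log2 −4.32 for MtnB, −1.40 for Cyp6a2, −0.97 for CG11893 and −0.89 for Droj2. It was higher by 1.34 for Rdl (probe 2919 only), 1.15 for CG11710, 1.03 for GlcT, 0.76 for probe 7325 and 0.61 for Jasper. The direction in the CNS and in heads was opposite, with a call in both, for MtnB only.

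Between the allele combinations, fru w12/Cham5 lay above fru 4-40/p14 by 1.71 for Rdl (probe 2919), 1.37 for CG11426, 1.11 for Jasper, 0.97 for DCTN3-p24 and 0.85 for emei, and below it by −3.06 for dsx. The other Rdl probe, 3259, gave a difference of 0.097 without a call (limma adjusted p 0.931). Jasper stayed called in 8 of 10 fits with 1 array left out, Rdl and CG11426 in 4 of 10, DCTN3-p24 in 3 of 8 and emei in 2 of 10. For dsx all 6 fits that could be made stayed called.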

How the results depend on the processing

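The 23 calls of the CNS mean became 24 with array medians at 0, 24 with arrays scaled to a common spread, 21 with a value on all 6 arrays and 24 with at least 4 of 6, and 20 to 23 of the 23 were among them. Counts moved to 478 with a mean for each combination and to 231 with 10 CNS arrays and a dye term, which cancels from this mean. All 16 of the original calls that could be tested in the latter fit stayed called. Zip102B, CG11893, Cyp6a2 and GlcT, the 4 calls with an adjusted p under 0.05, could not be tested there. A plain t-test with Benjamini-Hochberg adjustment gave 10 calls (8 shared), whereas the study used the positive false discovery rate. Counts were 4 to 9 without 1 array. fru passed the threshold with a mean for each combination and with the dye term only. Across the fits of fru and the called probes without 1 array, the direction was kept in all, the side of the threshold was kept in 41 and the call was lost in 103. The 244 differences between combinations became 5958 with no dye term, 18 to 302 without 1 fru array and 35 to 1674 without 1 wild-type array, an alternative chosen after seeing the data. The difference of Jasper turned to −0.0567 with no dye term, where the dye term is what changed. The 59 differences between CNS and heads became 187 with the combination as a further term, 36 to 53 without 1 array and 16 with the replicate block (10 shared). Same-numbered CNS and head arrays correlated at −0.120 to 0.0153 and 0 of 6 best with their own number. Most of these numbers stand for one combination in the CNS and the other in heads. The correlations therefore could not show a pairing of samples, and the block joined arrays of different genotypes. Other causes were not tested. With 3 arrays per combination, a median SE of 0.119 and 1 dye orientation per combination, small shared changes could not be told from 0.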

Other observations

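Several probes without a call had 1 sign on every CNS array with a value, and were singled out after their values were seen. pen-2, which encodes a subunit of gamma-secretase, read 0.38, 0.33 and 0.80 in fru w12/Cham5 and 1.22, 1.81 and 1.94 in fru 4-40/p14 (mean 1.08, adjusted p 0.319) and averaged 0.02 in heads. Hr38, the fly member of the NR4A nuclear receptor family whose transcription follows neuronal activity, read 0.41 and 0.54 on arrays 2 and 3 and 0.79, 0.50 and 1.21 on arrays 4 to 6 (mean 0.69, adjusted p 0.303). The probe assigned to the histone gene His1:CG33804 was next after the called ones, with a mean of 0.81 (adjusted p 0.153), and histone H1 copies are near-identical, so which copies it detects is uncertain. Probe 11793, unnamed here, was below 0 on every array, at −1.92, −1.79 and −1.42 against −0.44, −0.37 and −0.42, and read −1.30 in heads (adjusted p 0.0121).

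A single value of 15.5 stood on array 6, which held 7 values over 4 in size. Among the odorant-binding protein genes, Obp57a and Obp57b were low in fru w12/Cham5 only, at −2.28, −1.75 and −2.08 and at −2.28, −1.49 and −2.30, while all fru 4-40/p14 values of both lay between 0.06 and 0.62.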
